A study of Mus musculus with 23 samples.

Results

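The neurotrophins Bdnf and Ntf3 and the receptor genes Ntrk2, Ntrk3, Ngfr and Sort1 were followed as 1 signalling family through 3 neuronal populations of the mouse hippocampus. These 6 genes were chosen by name and matched by symbol to the 45706 gene IDs of the count table. All 6 were present and all 6 were among the 18823 genes with enough reads to be tested. Polyadenylated RNA was sequenced from 3 kinds of cells, titled CamK, Grik and SST. The labels call CamK and Grik cells excitatory pyramidal cells, and the series text speaks of CA1 and CA3 excitatory and SST-positive inhibitory neurons. Wild-type (WT) mice were compared with mice carrying a conditional knockout (cKO) of Slm2, an RNA-binding protein that regulates splicing and is encoded by Khdrbs3. The groups were 4 CamK WT, 3 CamK cKO, 4 Grik WT, 4 Grik cKO, 4 SST WT and 4 SST cKO libraries, each holding 87612006 to 112993538 reads in genes. The labels give neither the animals' ages nor whether libraries came from separate animals, so p-values measure the spread between these libraries. The driver lines, the isolation method and the deleted exons are not given in the sources used here.

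Neurotrophins are secreted proteins that are made as longer precursors. The mature forms act through Trk receptor kinases: BDNF through TrkB (Ntrk2) and NT-3 mainly through TrkC (Ntrk3). The p75 receptor (Ngfr) binds all neurotrophins and, with sortilin (Sort1), the uncut precursors, while sortilin inside the cell also sorts BDNF towards the regulated secretory pathway. In the hippocampus BDNF is known as a product of excitatory neurons whose gene is switched on by activity, and TrkB is found on most neurons and, in a form without the kinase, on astrocytes.

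The promoter sequences of Bdnf are shown because this gene had the largest differences from SST among the 6 genes, and because its many starts are known to respond to activity unequally. RefSeq start sites on GRCm38.p6 gave 11 upstream windows of 250 bases for 4 of the 6 genes: 7 for Bdnf, 2 for Ntf3 and 1 each for Ntrk2 and Ngfr. Ntrk3 and Sort1 were not matched. The motif CGTCA, the shared part of cyclic AMP response elements, was searched on both strands and was found in 1 of the 11 windows. This was the third Bdnf window, the promoter known as IV, at chr2:109692186-109692435 on the plus strand, where the match began 35 bases before the start and lay inside the longer string TCACGTCA. Over all 32851 windows of the table, 17.8% held CGTCA and 0.350% held TCACGTCA on either strand. The first Bdnf window, at chr2:109674450-109674699 on the plus strand, is printed beside it as one without the motif, and capitals mark the match.
Bdnf window 3: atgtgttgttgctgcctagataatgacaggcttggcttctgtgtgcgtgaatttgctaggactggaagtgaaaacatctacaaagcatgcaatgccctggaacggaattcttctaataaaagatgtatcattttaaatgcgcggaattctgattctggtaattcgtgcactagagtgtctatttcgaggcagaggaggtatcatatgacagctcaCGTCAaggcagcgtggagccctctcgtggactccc
Bdnf window 1: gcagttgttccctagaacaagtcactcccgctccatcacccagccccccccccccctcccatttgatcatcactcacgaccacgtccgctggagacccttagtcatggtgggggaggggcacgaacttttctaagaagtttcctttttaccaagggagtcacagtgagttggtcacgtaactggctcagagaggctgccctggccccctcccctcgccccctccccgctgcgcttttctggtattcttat
Reads were counted over the whole gene, so the values below do not tell which start was used.

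Before the members, the libraries were set against their labels. The 3 pyramidal markers Slc17a7, Camk2a and Neurod6 summed to between 5207 and 5918 counts per 1000000 gene reads (CPM) in CamK libraries, between 6567 and 7603 in Grik libraries and between 717 and 1017 in SST libraries. The interneuron markers Gad1, Gad2 and Slc32a1 summed to 3735 to 5790 CPM in SST libraries and to 41.2 to 135 in the others. The 5 oligodendrocyte markers summed to 684 to 924 CPM in Grik WT, 296 to 672 in SST WT and 144 to 219 in CamK WT, with a median log2 difference of -3.52 for CamK minus Grik. In the SST cKO libraries this sum was 428, 249.8, 945 and 1045 CPM in replicates 3, 4, 5 and 7. For Grik minus SST in WT the median log2 difference was 1.36 for these markers and -0.38 for 8 astrocyte markers. Glial markers thus differed between populations, not all in 1 direction. By genotype all 5 oligodendrocyte markers were above 0 in CamK, Grik and SST (medians 0.59, 0.24 and 0.76). Of the 8 astrocyte markers 8, 6 and 8 were above 0 (medians 0.55, 0.14 and 0.25). None was called by genotype, against 0.0106% of all genes. The part of glial RNA in the members' values was not tested. Sst itself ranged from 159 CPM in WT replicate 2 and 554 in WT replicate 3 to 2125 in cKO replicate 3, so the first of these stood apart in the gene that names its population. Leaving out SST WT replicate 2 changed no call of a member. Khdrbs3 was lower in the libraries labelled cKO in CamK and SST (log2 fold changes -0.42 and -0.47, edgeR adjusted p 0.114 and 0.0309) and higher in Grik (0.30, edgeR adjusted p 0.499). Its groups did not overlap in any population, which held for 6.75%, 2.7% and 4.59% of all genes in CamK, SST and Grik. Reads were summed over the whole gene and the deleted exons are not given, so these totals cannot tell whether the deletion took place. Throughout, cKO refers to the label alone. The SST call of Khdrbs3 was lost without WT replicate 1 or 5 or cKO replicate 3, 4 or 5 (adjusted p 0.0725 to 0.156), with limma-voom (-0.44, adjusted p 0.0614) and with the SST groups fitted alone (-0.50, adjusted p 0.966), while the log2 fold change stayed between -0.50 and -0.42 in these settings. Khdrbs3 passed in CamK with DESeq2 and limma-voom (adjusted p 0.00300 and 0.0207), and its higher level in Grik cKO passed with limma-voom (adjusted p 0.0158).

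Bdnf was a gene of the pyramidal libraries, highest in Grik, lower in CamK and more than 10-fold lower again in SST. In the 4 Grik WT libraries, replicates 3 to 6, Bdnf stood at 106, 94.3, 88.3 and 74.6 CPM, a mean of 90.8 ± 13.1 (SD, n = 4). In the 4 CamK WT libraries, replicates 2 to 5, it stood at 53.3, 55.8, 61.4 and 51.7 CPM, a mean of 55.6 ± 4.24 (SD, n = 4). Every Grik WT library was above every CamK WT library. In SST WT, replicates 1, 2, 3 and 5, it stood at 3.34, 5.23, 3.91 and 3.63 CPM, a mean of 4.03 ± 0.835 (SD, n = 4), far below both pyramidal groups. The log2 difference was -0.71 (SE 0.18, adjusted p 0.00343 by edgeR's quasi-likelihood test) for CamK minus Grik, 3.79 (SE 0.21, adjusted p 7.65e-13) for CamK minus SST and 4.50 (SE 0.21, adjusted p 5.89e-14) for Grik minus SST. These 3 comparisons share the WT groups. All 3 calls were kept under every alternative run. In bulk libraries fewer cells of a type and less RNA per cell cannot be told apart.

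Pyramidal markers were also measured at low levels in SST libraries. Relative to the mean of the CamK and Grik WT means, Bdnf in SST WT was 5.50%, Slc17a7 6.61%, Neurod6 3.78% and Camk2a 16.8%, so the 3 markers lay on both sides of Bdnf. In the SST libraries labelled cKO, replicates 3, 4, 5 and 7, Bdnf stood at 4.04, 3.44, 5.48 and 8.59 CPM, and the vesicular glutamate transporter Slc17a7 at 85.1, 67.8, 124 and 194 CPM. Replicate 7 was highest in both, and WT replicate 2, highest of its group in Bdnf, was also highest of its group in Slc17a7, at 121 CPM. Neurod6 was highest in the same 2 libraries, at 5.69% and 5.32% of the pyramidal mean. Camk2a did not single them out, at 18.1% in cKO replicate 7 against 17.9% in cKO replicate 5, and at 16.5% in WT replicate 2 against 18.2% in WT replicate 5. From WT to cKO the SST mean of Slc17a7 went from 6.61% to 9.35%, that of Neurod6 from 3.78% to 4.12% and that of Camk2a from 16.8% to 16.7%. The part of pyramidal RNA in the Bdnf value was not tested.

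**Figure D1:**
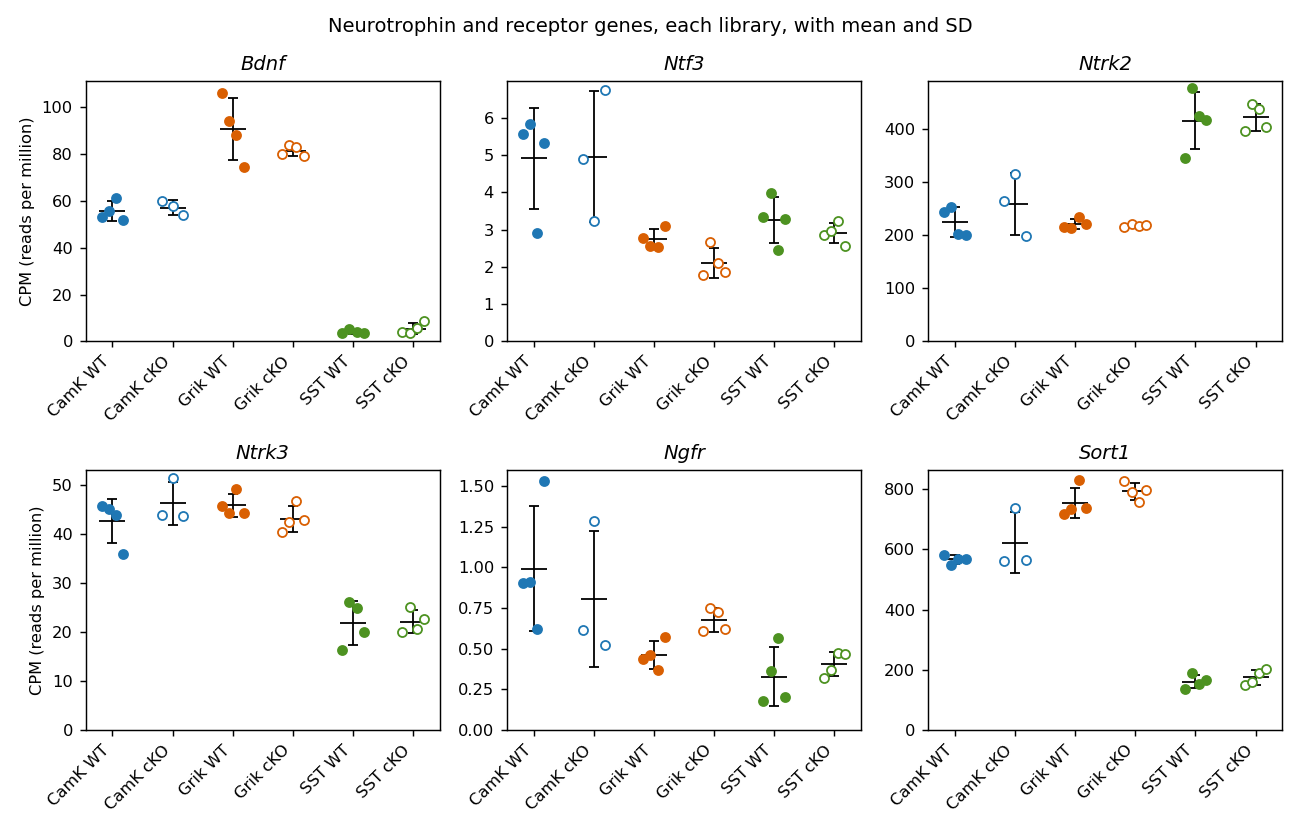
CPM of the 6 genes in each library (points; filled, WT; open, cKO) with the mean and SD of each group, by population and genotype. Bdnf and Sort1 are high in CamK and Grik and low in SST, Ntrk2 is highest in SST, and WT and cKO points overlap in every panel except Ngfr in Grik.

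Ntf3, which encodes NT-3, was measured at a few CPM everywhere and was highest in CamK. In CamK WT, replicates 2 to 5, it stood at 5.56, 5.85, 2.91 and 5.33 CPM, in Grik WT, replicates 3 to 6, at 2.78, 2.56, 2.53 and 3.11 CPM, and in SST WT, replicates 1, 2, 3 and 5, at 3.33, 3.98, 2.46 and 3.28 CPM. CamK WT replicate 4 fell inside the range of the Grik and SST libraries, and the other 3 CamK WT libraries were above all of them. The log2 difference was 0.84 (SE 0.21, edgeR adjusted p 0.00233) for CamK minus Grik and 0.59 (SE 0.21, edgeR adjusted p 0.0176) for CamK minus SST. The second call was lost without CamK WT replicate 2 or 3 or SST WT replicate 3 (adjusted p 0.0507, 0.0623 and 0.0701). Grik and SST did not differ past the threshold (-0.25, SE 0.21, adjusted p 0.331).

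Ntf3 varied between CamK libraries together with markers of dentate granule cells, a comparison chosen after the values were seen. The summed CPM of the 4 markers Prox1, C1ql2, Dsp and Trpc6 was 270, 218, 103 and 159 in CamK WT replicates 2 to 5 and 210.1, 109.5 and 266 in CamK cKO replicates 4 to 6. In those cKO libraries Ntf3 stood at 4.90, 3.22 and 6.74 CPM. The libraries lowest in Ntf3, WT replicate 4 and cKO replicate 5, were the lowest in the marker sum. They were also the highest of CamK in the 3 CA1 markers, at 905 and 1125 CPM against 587 to 811 in the other 5 libraries. In Grik the sum lay between 133 and 155 CPM with Ntf3 at 1.79 to 3.11 CPM, and in SST between 73.7 and 93.8 CPM with Ntf3 at 2.46 to 3.98 CPM. None of the 4 markers had a group mean under 1 CPM, and in SST Trpc6 alone gave 53.5 CPM of the WT sum, against 8.81 CPM in CamK WT. The part of granule and CA1 cells in the Ntf3 value was not tested.

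**Figure D2:**
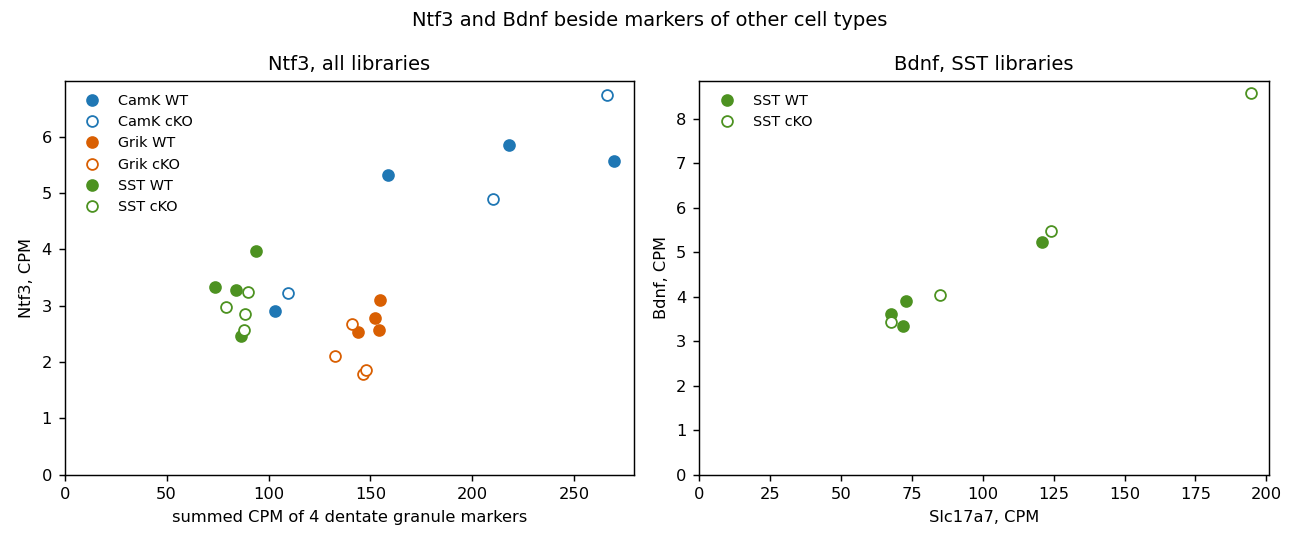
Left, Ntf3 in CPM against the summed CPM of 4 dentate granule markers in all 23 libraries; right, Bdnf against Slc17a7, both in CPM, in the 8 SST libraries (filled, WT; open, cKO). The 2 CamK libraries with marker sums of 103 and 109.5 have the lowest Ntf3 of that population, and SST cKO replicate 7 has the highest Bdnf and Slc17a7 on the right.

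Ntrk2, the gene of the BDNF receptor TrkB, ran opposite to its ligand, with its highest level in SST. It stood at 345, 477, 425 and 418 CPM in SST WT replicates 1, 2, 3 and 5, at 244, 253, 203 and 199 CPM in CamK WT replicates 2 to 5, and at 216, 213, 235 and 221 CPM in Grik WT replicates 3 to 6. All SST WT libraries were above all pyramidal ones, and CamK and Grik overlapped. The log2 difference was -0.89 (SE 0.11, edgeR adjusted p 1.03e-07) for CamK minus SST and -0.91 (SE 0.11, edgeR adjusted p 6.67e-08) for Grik minus SST. CamK and Grik were 0.02 apart (SE 0.11, adjusted p 0.880). Ntrk2 is also an astrocyte gene: the 8 astrocyte markers summed to 324 to 486 CPM in SST WT, 201 to 293 in CamK WT and 639 to 668 in Grik WT. The Grik sum was carried by the glutamate transporter Slc1a2, at 544 CPM in Grik WT and 124 in SST WT, while Aldoc stood at 48.6 and 169 CPM and Gfap at 14.8 and 27.1. Of the 8 markers, 3 were above 0 for Grik minus SST in WT, with a median log2 difference of -0.38. For CamK minus SST, 6 of the 8 were called lower and 1 higher, with a median of -1.62, the same direction as Ntrk2. The part of astrocyte RNA in the Ntrk2 value was not tested.

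Ntrk3, the gene of TrkC, had the reverse order. It stood at 45.6, 44.99, 43.8 and 35.9 CPM in CamK WT replicates 2 to 5, at 45.6, 44.2, 49.2 and 44.2 CPM in Grik WT replicates 3 to 6, and at 16.4, 26.1, 24.9 and 19.9 CPM in SST WT replicates 1, 2, 3 and 5. No SST library reached a pyramidal one. The log2 difference was 0.97 (SE 0.11, edgeR adjusted p 6.43e-08) for CamK minus SST and 1.07 (SE 0.11, edgeR adjusted p 1.12e-08) for Grik minus SST, while CamK minus Grik was -0.11 (SE 0.11, adjusted p 0.480). The 2 Trk genes thus differed between SST and pyramidal libraries by about the same size on the log2 scale with opposite signs.

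Ngfr, the gene of p75, was the scarcest member. It stood at 0.903, 0.908, 0.621 and 1.53 CPM in CamK WT, 0.435, 0.464, 0.366 and 0.574 CPM in Grik WT and 0.180, 0.361, 0.569 and 0.201 CPM in SST WT, in the same order of replicates as above. These values rest on 20 to 140 reads a library. CamK WT libraries were above all Grik and SST WT libraries, and Grik and SST overlapped. The log2 difference was 1.11 (SE 0.34, edgeR adjusted p 0.0103) for CamK minus Grik and 1.60 (SE 0.34, edgeR adjusted p 0.000291) for CamK minus SST, and Grik minus SST was 0.49 (SE 0.35, adjusted p 0.240). The first call was lost without CamK WT replicate 5 (0.82, adjusted p 0.0661), and Grik minus SST passed without SST WT replicate 3 (0.90, adjusted p 0.0359).

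Sort1, the sorting receptor, had the highest CPM of the 6 genes in the pyramidal libraries, and in SST libraries it came after Ntrk2. It stood at 716, 733, 829.6 and 736 CPM in Grik WT, 583, 548, 567 and 567 CPM in CamK WT and 135, 188, 154 and 166 CPM in SST WT. The 3 groups did not overlap. The log2 difference was -0.41 (SE 0.10, edgeR adjusted p 0.00147) for CamK minus Grik, 1.82 (SE 0.10, edgeR adjusted p 8.83e-14) for CamK minus SST and 2.23 (SE 0.10, edgeR adjusted p 2.05e-15) for Grik minus SST. Sort1 thus followed the order of Bdnf, Grik above CamK above SST, with smaller steps.

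Per comparison, 4 of the 6 genes were called in WT between CamK and Grik, where 42.0% of all genes tested were called, 6 of 6 between CamK and SST (background 60.1%) and 4 of 6 between Grik and SST (background 57.3%). With so many genes called, these counts say little about the family, and the sizes carry the description. The median log2 difference of the 6 was -0.04, 1.28 and 0.78 in these comparisons, and that of all genes 0.01, -0.02 and -0.03. In the libraries labelled cKO, which share no sample with the WT ones, 3, 6 and 4 of the 6 were called (backgrounds 35.7%, 56.4% and 57.9%). There Bdnf differed by -0.51 (SE 0.20, adjusted p 0.0496), 3.41 (SE 0.21) and 3.92 (SE 0.21) on the log2 scale, and Ntrk2 by -0.70 (SE 0.12) from CamK to SST and -0.95 (SE 0.11) from Grik to SST. The Bdnf call between CamK and Grik at cKO was lost without any 1 of its 7 libraries (adjusted p 0.0716 to 0.140). At cKO the Ngfr call from CamK to SST (0.98, SE 0.36, adjusted p 0.0240) was lost without CamK replicate 5 (0.47, adjusted p 0.310) or SST replicate 3 (adjusted p 0.0636), and the Ntf3 call (0.77, SE 0.22, adjusted p 0.00520) without CamK replicate 6 (adjusted p 0.0895). The Sort1 call between CamK and Grik at cKO (-0.35, SE 0.11, adjusted p 0.0126) was lost without CamK replicate 4 or 6 (adjusted p 0.0852 and 0.0791). Calls gained by leaving out 1 cKO library were Ntf3 from Grik to SST without Grik replicate 2 (adjusted p 0.0308) and Ntrk2 from CamK to Grik without CamK replicate 6 (0.41, adjusted p 0.00443). All p-values are from edgeR.

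**Figure D3:**
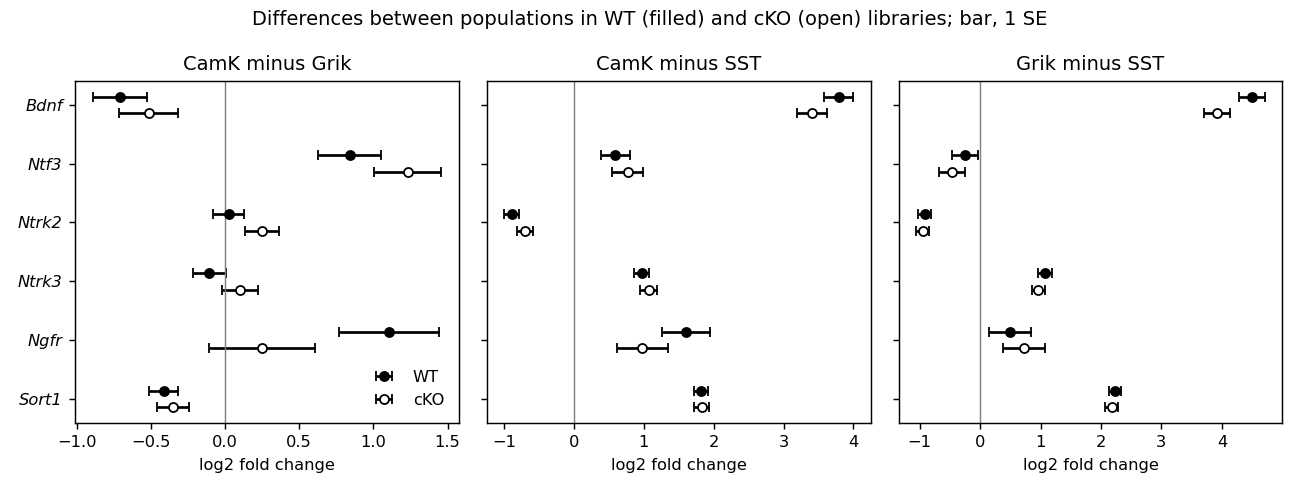
Log2 fold change between populations for the 6 genes in WT (filled) and cKO (open) libraries; bars are 1 SE. Bdnf and Sort1 lie far to the right in both comparisons with SST, at 3.79 and 1.82 for CamK in WT, and Ntrk2 lies left of 0 in both.

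Compared per length, Sort1 stood highest in the pyramidal libraries and Ngfr lowest in all groups. In CPM per kilobase of exon, Sort1 was 74.8 in CamK WT and 99.6 in Grik WT, and 21.2 in SST WT, where Ntrk2 was 21.6. Ntrk2 was 11.7 in CamK WT and 11.5 in Grik WT, Bdnf 8.94 and 14.6, Ntf3 2.87 and 1.60, Ntrk3 1.41 and 1.52, and Ngfr 0.288 and 0.133. In SST WT Bdnf was 0.648, below Ntrk3 at 0.722 and Ntf3 at 1.90 CPM per kilobase, and Ngfr was 0.0951. With the length of the longest transcript in place of all exons, Ntrk2 in Grik WT was above Bdnf (25.3 against 21.3). In SST WT Ntrk2 stood first by both lengths, at 47.6 against 23.5 for Sort1 by the longest transcript, and in SST cKO it was second to Sort1 by all exons (21.9 against 23.2) and first by the longest transcript (48.3 against 25.7). The exons of Ntrk2 cover 19292 bases in all, so its place depends on the length chosen.

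For each of the 6 genes the closest pattern over all 23 libraries was sought among 12142 genes, by the root mean square difference of centred log2 CPM. Nrn1, a small activity-responsive neuronal protein, lay nearest to Bdnf (0.15), with Sv2b, a synaptic vesicle protein, next (0.21). The nearest to Sort1 were Faah (0.11), which breaks down anandamide, and Pcdhgc5 (0.14), a clustered protocadherin. Ntrk2 was nearest to Lpgat1 and the calcium channel subunit Cacna2d3 (both 0.14), and Ntrk3 to Ncoa6 (0.12) and the channel Trpc5 (0.13). Ntf3 and Ngfr had looser neighbours, Isoc1 (0.27) and Susd1 (0.28), and Pgghg (0.39) and Ndrg1 (0.43). Ndrg1 is abundant in oligodendrocytes, but here it did not follow the oligodendrocyte markers. It stood at 64.4, 36.9 and 18.1 CPM in CamK, Grik and SST WT, where the marker sums averaged 189, 806 and 489 CPM.

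The genotype comparison gave no called member in any population. In CamK, Grik and SST, 0 of 6 genes passed the edgeR threshold, where 0.0106% of all genes passed in each. Before adjustment 0, 0 and 1 of the 6 had a p under 0.05, against 7.05%, 4.88% and 5.85% of all genes. The log2 fold changes of the 6, cKO minus WT, lay between -0.30 and 0.21 in CamK, between -0.38 and 0.56 in Grik, and for SST between -0.17 and 0.42, with SEs from 0.10 to 0.36. Some of these values moved with 1 library: Ngfr in CamK was -0.80 without cKO replicate 5 and -0.0088 without WT replicate 5, Ngfr in SST was 0.73 without WT replicate 3 and 0.11 without WT replicate 1, and Ntrk2 in CamK was 0.37 without cKO replicate 6 and 0.044 without cKO replicate 5. DESeq2 and limma-voom also called none, and over 660 values under alternatives none was called, with a lowest adjusted p of 0.296. The differences of genotype effects between populations gave 0 of 6 called in each of 3 tests (backgrounds 0.00531% for CamK minus Grik, 0.0% for CamK minus SST and 0.0106% for Grik minus SST).

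Bdnf in SST had the lowest unadjusted p of the 6. Its SST values in WT and cKO are given above, and they overlapped, with means of 4.03 and 5.39 CPM. The log2 fold change was 0.42 (SE 0.20, adjusted p 0.833 by edgeR), and it was 0.10 (SE 0.14) without cKO replicate 7. It was 0.59 without cKO replicate 4, 0.57 without WT replicate 2 and 0.54 without cKO replicate 3, and over all alternatives the adjusted p was 0.296 or higher. With the replicate number as a block the log2 fold change was 0.12 (SE 0.15), and with limma-voom it was 0.30 (SE 0.19). In Grik, the libraries labelled cKO, replicates 1 to 4, held 80.0, 83.8, 83.1 and 79.4 CPM of Bdnf, all inside the WT range, and in CamK, replicates 4 to 6, 60.1, 57.7 and 53.8 CPM. The Grik and CamK log2 fold changes were -0.15 (SE 0.18) and 0.04 (SE 0.20), and leaving out 1 library gave -0.25 to -0.076 (without WT replicate 6 and 3) and 0.0042 to 0.093 (without cKO replicate 4 and WT replicate 4). Ngfr in Grik was the one member whose groups did not overlap, at 0.608, 0.751, 0.725 and 0.622 CPM in replicates 1 to 4 labelled cKO, on 52 to 67 reads a library. Its log2 fold change was 0.56 (SE 0.34, adjusted p 0.992 by edgeR), and 4.59% of all genes had groups that did not overlap in this comparison.

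Ntrk2 stood at 216, 221, 218 and 219 CPM in the Grik libraries labelled cKO and at 396, 448, 438 and 404 CPM in the SST ones, both inside their WT ranges. In CamK cKO replicates 4 to 6 it stood at 265, 315 and 199 CPM, which was 0.21 above WT on the log2 scale (SE 0.11, edgeR adjusted p 0.735). Sort1 stood at 563, 738 and 566 CPM there. Replicate 5 was thus the highest CamK library in both, and also in the 4 Sort1 relatives Sorcs1 (19.6 CPM), Sorcs2 (31.1 CPM), Sorcs3 (78.5 CPM) and Sorl1 (404 CPM). Its astrocyte marker sum, 357 CPM, was the highest in CamK too, where the cKO libraries held 329.8 to 357 CPM and the WT libraries 201 to 293. The same library was the highest of CamK in the 3 CA1 markers (1125 CPM against 587 to 905 in the other CamK libraries) and in the 5 oligodendrocyte markers (279 CPM), and the lowest in the 3 CA3 markers (51.3 CPM against 75.1 to 99.3). The part of these cells in its values was not tested. 

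In the remaining cKO libraries the members lay as follows. Ntf3 stood at 1.79, 2.67, 2.11 and 1.87 CPM in Grik replicates 1 to 4 and at 2.85, 2.98, 3.24 and 2.56 CPM in SST replicates 3, 4, 5 and 7. Ntrk3 stood at 43.8, 51.3 and 43.6 CPM in CamK replicates 4 to 6, at 40.5, 42.4, 46.6 and 42.7 CPM in Grik and at 19.9, 25.1, 20.6 and 22.7 CPM in SST. Each of these groups overlapped its WT group. Ngfr stood at 0.614, 1.28 and 0.522 CPM in CamK and at 0.321, 0.372, 0.471 and 0.469 CPM in SST, and Sort1 at 826, 791, 756 and 798 CPM in Grik and at 150.2, 159.7, 189.7 and 202 CPM in SST. These also overlapped with WT. The log2 fold changes of Ntf3 were 0.01, -0.38 and -0.17 in CamK, Grik and SST (SEs 0.22, 0.21 and 0.21), those of Ntrk3 0.12, -0.09 and 0.02 (SEs 0.11 to 0.12) and those of Sort1 0.14, 0.07 and 0.13 (SEs 0.10 to 0.11). Leaving out 1 library gave -0.28 to -0.058 for Ntf3 in SST. For Ntrk3 it gave 0.038 to 0.16 in CamK and -0.13 to -0.056 in Grik. For Sort1 it gave 0.044 to 0.12 in Grik and 0.052 to 0.21 in SST.

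**Figure D4:**
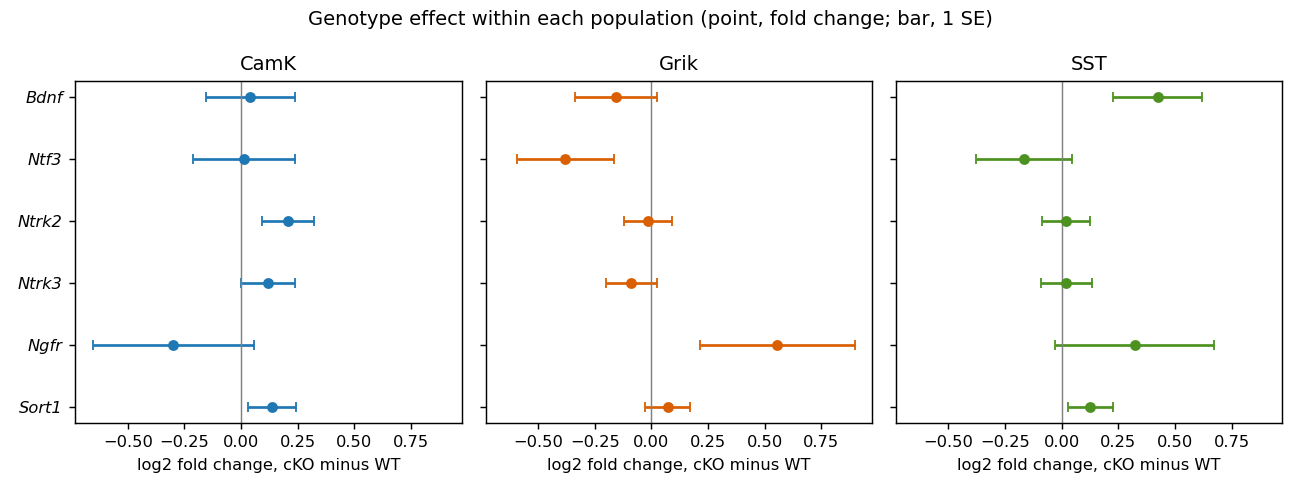
Log2 fold change, cKO minus WT, of the 6 genes in each population; bars are 1 SE. All 6 lie between -0.38 and 0.56, and the bars of Ngfr are the widest.

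Of 5 further ligand and receptor genes, listed for their place in the pathway, 0 were called between genotypes in any population (0.0106% of all genes in each). In WT 2 were higher and 2 lower in CamK than in Grik, 5 higher in CamK than in SST, and 4 higher and 1 lower in Grik than in SST, where 42.0%, 60.1% and 57.3% of all genes were called. Their median log2 differences were 0.092, 1.35 and 1.26. Ntf5, which encodes NT-4, another ligand of TrkB, was near absent outside Grik, at 0.433 ± 0.0892 CPM (SD, n = 4) in Grik WT against 0.0888 in CamK WT and 0.0240 in SST WT. Sorcs1 was highest in CamK WT, at 10.9 ± 0.922 CPM (SD, n = 4), against 2.29 in Grik and 5.19 in SST. Sorcs3 followed with 49.98, 27.9 and 7.96 CPM in CamK, Grik and SST WT. Sorcs2 went the way of Sort1, 24.7, 33.2 and 14.3 CPM, and Sorl1 was 276, 259 and 108 CPM. The call of Ntf5 between CamK and SST rests on 0 to 12 reads a library and was lost without CamK WT replicate 3 or SST WT replicate 2 or 5.

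**Figure D5:**
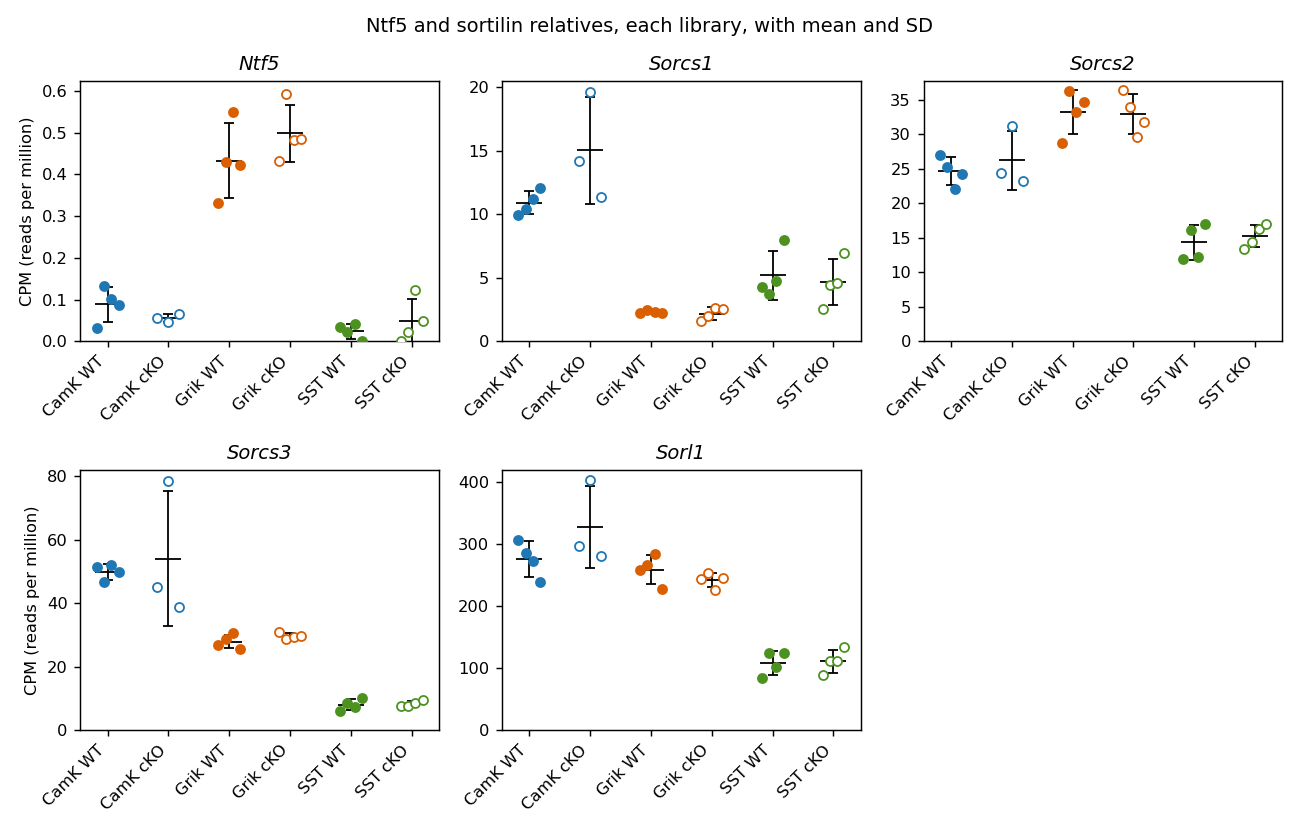
CPM of Ntf5 and of the sortilin relatives Sorcs1, Sorcs2, Sorcs3 and Sorl1 in each library (points; filled, WT; open, cKO) with the mean and SD of each group. Ntf5 is highest in Grik, and Sorcs1 and Sorcs3 in CamK, where cKO replicate 5 is the highest point for all 4 relatives.

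Genes that make, release or receive the signal were read from lists chosen for their roles. No gene of any of these lists was called between genotypes in any population: 0 of 11 genes of precursor processing and release, 0 of 23 Trk adaptors and co-receptors, 0 of 24 downstream kinases, 0 of 10 p75 partners, 0 of 13 regulators of Bdnf transcription and 0 of 25 activity-regulated genes, against 0.0106% of all genes. Before adjustment 6 of the 25 activity-regulated genes and 4 of the 13 Bdnf regulators had a p under 0.05 in Grik, where 4.88% of all genes did, and 3 of the 11 processing genes in CamK, where 7.05% did. In the other list and population pairs such genes numbered from 0 to 3. Npas4 was in both the activity-regulated and the Bdnf regulator lists, whose median log2 fold changes in Grik were 0.037 and -0.051. The median of the processing genes in CamK was 0.13. Between WT populations 20.9% of all genes were higher and 21.1% lower in CamK than in Grik, 29.5% higher and 30.5% lower in CamK than in SST, and 28.1% higher and 29.2% lower in Grik than in SST. The activity-regulated list was 9 higher and 1 lower of 25 in CamK than in Grik, with a median log2 difference of 0.37. It was 18 higher and 4 lower of 25 in CamK than in SST, with a median log2 difference of 1.78, and 16 higher and 5 lower in Grik than in SST, with a median of 1.19, where the median of all genes was 0.01, -0.02 and -0.03. Egr3 stood at 104 ± 9.81 CPM (SD, n = 4) in CamK and 10.4 ± 3.03 (SD, n = 4) in SST, and Vgf, a peptide precursor induced by neurotrophins, went the other way, at 129 ± 17.5 and 339 ± 63.8 CPM (SD, n = 4 each). Of the 10 p75 partners, 1 was higher and 3 lower in CamK than in Grik, 5 higher and 2 lower in Grik than in SST, and 6 were higher and 2 lower in CamK than in SST. Rtn4r, the Nogo receptor, stood at 73.2 ± 8.78 CPM (SD, n = 4) in CamK WT and 7.32 ± 0.940 (SD, n = 4) in SST WT, and Lingo1, its partner, at 288 ± 44.0 and 47.4 ± 6.22. In Grik WT these stood at 73.1 and 352 CPM. Maged1 and Bex3, which bind the inner part of p75, were highest in SST WT, at 994 and 285 CPM against 765 and 224 in CamK WT.

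The 11 processing genes were 2 higher and 5 lower in CamK than in Grik, 4 and 4 in CamK against SST, and 5 and 2 in Grik against SST. In this list the proconvertase Pcsk2 was higher in pyramidal libraries, at 278 ± 24.7 CPM (SD, n = 4) in CamK WT and 392 ± 32.2 (SD, n = 4) in Grik WT against 64.9 ± 9.12 (SD, n = 4) in SST WT. Cadps2, which promotes BDNF release, was highest in CamK WT, at 201 ± 29.9 CPM (SD, n = 4), against 60.5 in Grik and 22.1 in SST. Serpini1, an inhibitor of the protease tPA, was highest in SST WT, at 430.0 CPM against 151 in CamK and 52.1 in Grik. The 13 regulators of Bdnf transcription were 6 higher and 3 lower in CamK than in Grik, 9 and 3 in CamK against SST, and 8 and 3 in Grik against SST. Among them Camk4 followed the order of Bdnf, at 352, 246 and 80.6 CPM in Grik, CamK and SST WT, and Npas4 was 4.91, 6.23 and 1.14. Mef2c did not follow it, at 74.5 CPM in Grik, 274 in CamK and 312 in SST. The 23 Trk adaptors were 4 higher and 9 lower in CamK than in Grik, 9 and 11 in CamK against SST, and 11 and 8 in Grik against SST, and the 24 downstream kinases 7 and 7, 12 and 6, and 10 and 9. The adaptor Gab1 averaged 16.7 CPM in Grik WT and only 1.88 ± 0.759 (SD, n = 4) in CamK WT, which differed by -3.15 on the log2 scale (SE 0.25, edgeR adjusted p 7.53e-10).

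Within populations, Bdnf was set against the mean log2 CPM of the 25 activity-regulated genes over libraries of both genotypes. Pearson's r was 0.643 in CamK (n = 7, exact permutation p 0.115), 0.330 in Grik (n = 8, exact permutation p 0.414) and -0.104 in SST (n = 8, exact permutation p 0.853), and Spearman's rho 0.750, 0.381 and -0.119 (exact permutation p 0.0663, 0.360 and 0.793). Ntrk2 against the 8 astrocyte markers gave an r of 0.657 in CamK (exact permutation p 0.0782), -0.0602 in Grik (exact permutation p 0.971) and 0.245 in SST (exact permutation p 0.578), with rho 0.393, 0.286 and 0.0714 (exact permutation p 0.396, 0.501 and 0.882). Over the 6 relations the adjusted p-values were 0.346, 0.828 and 0.971 for Bdnf and 0.346, 0.971 and 0.867 for Ntrk2 by r, and 0.398, 0.751 and 0.882 for Bdnf and 0.751, 0.751 and 0.882 for Ntrk2 by rho, so none passed. With the list's median in place of its mean, r was 0.806 for Bdnf in Grik and 0.825 for Ntrk2 in CamK (adjusted exact permutation p 0.0464 for both), which passed. By rho under that setting Bdnf in Grik passed (0.881, adjusted exact permutation p 0.0435) and Ntrk2 in CamK did not (0.821, adjusted exact permutation p 0.102). With the mean and without the 2 libraries farthest from the median of the list, r was 0.824, 0.0923 and 0.0436 for Bdnf in CamK, Grik and SST, and 0.201, -0.279 and 0.431 for Ntrk2. Centred on the genotype means, r was 0.635, 0.659 and 0.0085 for Bdnf and 0.571, -0.0141 and 0.226 for Ntrk2.

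On GRCm38, in the GENCODE M21 annotation, Bdnf (ENSMUSG00000048482) lies at chr2:109674700-109727007 on the plus strand and Ntf3 (ENSMUSG00000049107) at chr6:126101412-126166910 on the minus strand. Ntrk2 (ENSMUSG00000055254) lies at chr13:58806569-59133970 on the plus strand and Ntrk3 (ENSMUSG00000059146) at chr7:78175959-78738012 on the minus strand. Ngfr (ENSMUSG00000000120) lies at chr11:95568818-95587735 on the minus strand and Sort1 (ENSMUSG00000068747) at chr3:108284082-108361511 on the plus strand. All 6 are protein-coding. The exons of Bdnf and Sort1 overlap the antisense genes Gm45346 and Gm12523, and since the strand setting of the counting is not given, reads of these pairs cannot be told apart.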

How the data were processed

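Read counts per Ensembl gene, not normalized, were deposited by the authors for 23 libraries of polyadenylated RNA, and the form of the 4 summary rows is that of STAR's gene counts, per the file headers. The submitters' processing notes name Trimmomatic, STAR and GRCm38; versions, annotation release and strand setting are not given in the sources used here. Rows that name no gene (12.4 to 18.4% of reads) were left out. Low genes were removed with filterByExpr on the 6 groups, leaving 18823. All libraries were scaled by TMM and fitted together in edgeR 4.0.16 (R 4.3.3) with glmQLFit, robust, and glmQLFTest, with 17 residual degrees of freedom and Benjamini-Hochberg adjustment over all genes at a threshold of 0.05. CPM are counts per 1000000 gene reads after TMM scaling. An SE is the log2 fold change divided by the square root of F. Pairs of replicates differed by 8.27 to 198 in chi-square per degree of freedom, so all were counted as separate libraries. This cannot tell whether they came from separate animals. At these depths the spread between libraries outweighs counting error for most genes, and the common biological coefficient of variation was 16.3%. For Ngfr, on few reads, the coefficient of variation in CPM ran from 10.7% in Grik cKO to 54.8% in SST WT. The part of counting error in these Ngfr values was not tested.

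The 6 genes, the lists and the comparisons were chosen with earlier results of these data known. The text names the 6 genes, the 5 further ligands and receptors, Khdrbs3, the 2 genes most like each of the 6 (mean CPM of 1 or more, with a regular symbol), and from each pathway list, in WT comparisons, some of the up to 2 higher and 2 lower called genes of largest fold change whose mean reached 1 CPM and whose groups do not overlap. No pathway list gene was called between genotypes. Relations between libraries used exact two-sided permutation tests in SciPy 1.17.1.

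The settings varied were the scaling (relative log expression), the filter (none, or 1 CPM in 3 or more libraries), the tool (DESeq2 1.42.0, limma-voom 3.58.1 with sample weights), the compared groups alone, the replicate number as a block, and leaving out each library. The fitting code was tested on simulated data. Replicate numbers were checked for pairing. For WT CamK and SST libraries of each shared number deviated together, with correlations of 0.143, 0.108 and 0.126 for numbers 2, 3 and 5. Libraries of different numbers in these groups gave -0.153 (CamK 2 with SST 5) to 0.140 (CamK 2 with SST 3). The correlations thus do not settle whether numbers mark pairs, and the labels do not say what a number marks. In that comparison the block changed no call of the 6 genes. Other pairs of groups were mixed. SST WT and cKO gave 0.267 for number 5 and -0.115 for number 3. Grik and SST WT gave 0.155 for number 3 and -0.162 for number 5. CamK WT and cKO gave 0.105 for number 4 and -0.026 for number 5. Promoter windows came from RefSeq (GRCm38.p6). Some genes of the pathway are not reported here, and splicing was not analysed here.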

Additional observations from a re-analysis of the deposited data

How the results depend on the processing

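Between genotypes 0 of the 6 genes were called under each alternative run, though the filter of 1 CPM in 3 or more libraries left Ngfr untested and covers the other 5, and between WT populations the counts of called members were 3 to 4, 5 to 6 and 4 to 5 (CamK and Grik, CamK and SST, Grik and SST) when 1 library was left out. At cKO these were 1 to 2, 5 to 6 and 4 to 5, so the CamK and Grik count of 3 fell to 1 without CamK replicate 4. Of all 18823 genes, 7128 to 7823, 10701 to 10991 and 10118 to 10479 were called in WT when 1 library was left out. At cKO these were 5608 to 6166, 9529 to 10524 and 10266 to 10755. With the replicate number as a block the counts of members were 4, 6 and 4 in WT and 2, 5 and 6 at cKO. Of all 18823 genes the block called 7862, 11148 and 10065 in WT and 5793, 9751 and 10098 at cKO. The block gave log2 values of the other sign for Bdnf (0.05) and Ntf3 (-0.064), genotype effect in CamK minus SST; Ntf3 by genotype in CamK (-0.038) and SST (0.027); Ntrk2, WT CamK minus Grik (-0.073); Ntrk3 by genotype in SST (-0.019); and Sort1, genotype effect in Grik minus SST (0.025). The block ended 2 cKO calls, Bdnf in CamK and Grik (-0.41, adjusted p 0.0539) and Ntf3 in CamK and SST (0.55, adjusted p 0.0622), and gave 2, Ntf3 (-0.63, adjusted p 0.0246) and Ngfr (1.02, adjusted p 0.0476) in Grik and SST, which limma-voom (adjusted p 0.0377 and 0.0439) and the compared groups alone (adjusted p 0.0366 and 0.0225) also gave; all p-values are from edgeR unless named. The compared groups alone reversed Ntrk2 (-0.0011) and Ntrk3 (-0.0019) by genotype in SST. Limma-voom reversed Ntrk3 by genotype in SST (-0.072), Ngfr at cKO in CamK minus Grik (-0.037) and Sort1, genotype effect in CamK minus SST (-0.049), and ended the cKO Ngfr call in CamK and SST (0.69, adjusted p 0.0957). The cKO Bdnf call in CamK and Grik also ended with relative log expression scaling (adjusted p 0.0504) and without a filter (adjusted p 0.103). The causes were not tested.

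Leaving out 1 library turned the sign of these uncalled log2 values, given as ranges. Ntf3 ran from -0.27 to 0.24 by genotype in CamK and from -0.11 to 0.41 for the effect in CamK minus SST. Ntrk2 ran from -0.037 to 0.078 for WT CamK minus Grik, -0.033 to 0.012 by genotype in Grik, -0.060 to 0.092 in SST and -0.11 to 0.045 for the effect in Grik minus SST. Ntrk3 ran from -0.10 to 0.12 by genotype in SST and from -0.21 to 0.0080 for the effect in Grik minus SST. Ngfr ran from -0.25 to 0.49 at cKO for CamK minus Grik and from -0.17 to 0.44 for the effect in Grik minus SST. Sort1 ran from -0.0049 to 0.20 by genotype in CamK, and from -0.077 to 0.13, -0.13 to 0.085 and -0.14 to 0.021 for the effects in CamK minus Grik, CamK minus SST and Grik minus SST.

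Bdnf and activity-regulated genes gave r between 0.557 and 0.724 in CamK, between -0.0898 and 0.616 in Grik and between -0.281 and 0.178 in SST, and Ntrk2 and astrocyte markers 0.431 to 0.890, -0.251 to 0.463 and 0.0754 to 0.443, when 1 library was left out. With the list's median in place of its mean, r was 0.806 for Bdnf in Grik and 0.825 for Ntrk2 in CamK (adjusted p 0.0464 by exact permutation for both), and rho passed for Bdnf only. Bdnf in SST turned to 0.0085 centred on the genotype means and to 0.0436 without the 2 farthest libraries. The Ntf5 call between WT CamK and SST, on 0 to 12 reads a library, was lost with limma-voom, with those groups alone, with the block (adjusted p 0.0611, 0.0599 and 0.0753) and without CamK replicate 3 or SST replicate 2 or 5. Ngfr and Ntf5 rest on few reads, and the part of counting error in their values was not tested.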
